A study of Mus musculus with 29 samples.

Results

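Skeletal muscle genes were followed through skin RNA-seq of mice in which Dlx3 had been deleted in the adult. The set held 34 genes of the contractile apparatus, of calcium handling and of muscle metabolism, chosen by gene symbol and sorted by fibre type into 6 slow genes, 14 fast genes and 14 genes used by both fibre types. All 34 were found in each of 3 tables of RPKM (reads per unit of transcript length and of library size), which listed 24543 genes for day 3 epidermis, 24453 for day 3 dermis and 24081 for the week 1 tissues (25226 in all). The choice was by name, but it was made with earlier results of these data known.

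The study compared icKO mice, which lost the homeobox gene Dlx3 from epidermal keratinocytes through keratin 14-driven Cre switched on by tamoxifen, with WT mice, all of mixed background and 42 to 46 days of age per the series title. At day 3 after tamoxifen, epidermis gave 4 WT and 4 icKO libraries with no inhibitor, which the headers call vehicle, and 3 WT and 4 icKO libraries given an inhibitor of the transcription factor STAT3 (STAT3i). From dermis at day 3 there were 3 libraries of each genotype, none with inhibitor. At week 1, epidermis (topical tamoxifen) and dermis (intraperitoneal tamoxifen, per the headers) each had 2 libraries per genotype. Libraries of a group are lettered a to d, as names only. Keratin 14 marks basal keratinocytes, and muscle RNA was read here as a measure of muscle tissue in the sample. In such bulk samples fewer muscle cells and less RNA per muscle cell cannot be told apart.

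Muscle shortens when myosin thick filaments pull on actin thin filaments, after calcium released from the sarcoplasmic reticulum has bound troponin. Fast and slow fibres build this machine from different genes for myosin heavy chains, myosin light chains and the subunits of troponin, and fast fibres also carry more of the calcium pump and calcium-binding proteins that end a contraction quickly. Mouse skin lies on the panniculus carnosus, a thin sheet of mostly fast skeletal muscle.

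The upstream sequences of the 5 slow genes with the largest log2 difference between icKO and WT without inhibitor are shown, largest first, with those of 2 abundant fast genes, so that the regulatory sequence of both programmes can be read beside their values. They are the 250 bases before the transcript start in RefSeq (GRCm38.p6), written 5′ to 3′ on the gene's strand. Capitals mark matches on either strand to 4 motifs: the E-box CAGCTG bound by myogenic factors, the MCAT element CATTCC, the TATA box TATAAA and the CArG box bound by serum response factor. The Myl2 window holds no match to any of them. It ends at base 122092723, well before the start of the Myl2 gene in the GENCODE M21 annotation (122100951), so it may not be the sequence next to the start used in muscle. The same limit applies to the Tnni1, Mylpf and Tnnt1 windows, which lie inside the annotated genes (starts at 135779434, 127208890 and 4516382). The Myh4 window ends at 67237811, short of the annotated start (67238029).
Myl2 promoter, chr5:122092474-122092723, plus strand: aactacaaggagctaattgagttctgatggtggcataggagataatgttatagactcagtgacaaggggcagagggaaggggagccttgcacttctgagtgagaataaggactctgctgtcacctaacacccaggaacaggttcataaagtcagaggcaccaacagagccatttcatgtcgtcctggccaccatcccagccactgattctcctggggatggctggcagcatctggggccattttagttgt
Tnnt1 promoter, chr7:4515976-4516225, minus strand: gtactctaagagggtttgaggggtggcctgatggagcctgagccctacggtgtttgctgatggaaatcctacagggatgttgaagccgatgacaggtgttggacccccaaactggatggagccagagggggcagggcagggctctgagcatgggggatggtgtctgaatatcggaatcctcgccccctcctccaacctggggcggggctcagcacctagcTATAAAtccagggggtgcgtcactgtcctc
Myh7 promoter, chr14:54994627-54994876, minus strand: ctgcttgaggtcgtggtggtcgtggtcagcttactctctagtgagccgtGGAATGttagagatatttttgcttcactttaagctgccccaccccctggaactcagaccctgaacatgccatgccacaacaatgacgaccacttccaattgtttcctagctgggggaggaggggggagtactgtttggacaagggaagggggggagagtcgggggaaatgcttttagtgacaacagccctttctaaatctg
Tnnc1 promoter, chr14:31208062-31208311, plus strand: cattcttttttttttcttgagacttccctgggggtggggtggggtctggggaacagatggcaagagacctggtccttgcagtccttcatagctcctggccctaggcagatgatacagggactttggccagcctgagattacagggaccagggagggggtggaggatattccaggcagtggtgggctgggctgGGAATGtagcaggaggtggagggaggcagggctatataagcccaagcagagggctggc
Tnni1 promoter, chr1:135799171-135799420, plus strand: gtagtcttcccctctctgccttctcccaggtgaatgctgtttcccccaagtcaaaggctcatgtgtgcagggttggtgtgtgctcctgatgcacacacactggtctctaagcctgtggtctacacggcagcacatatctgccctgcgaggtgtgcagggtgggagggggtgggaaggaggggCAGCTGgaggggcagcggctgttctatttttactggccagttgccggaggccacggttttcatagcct
Mylpf promoter, chr7:127211358-127211607, plus strand: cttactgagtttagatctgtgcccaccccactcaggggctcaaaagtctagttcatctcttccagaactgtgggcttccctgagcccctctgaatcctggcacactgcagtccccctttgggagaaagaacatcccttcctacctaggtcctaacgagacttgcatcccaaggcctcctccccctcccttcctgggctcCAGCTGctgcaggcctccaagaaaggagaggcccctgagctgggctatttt
Myh4 promoter, chr11:67237562-67237811, plus strand: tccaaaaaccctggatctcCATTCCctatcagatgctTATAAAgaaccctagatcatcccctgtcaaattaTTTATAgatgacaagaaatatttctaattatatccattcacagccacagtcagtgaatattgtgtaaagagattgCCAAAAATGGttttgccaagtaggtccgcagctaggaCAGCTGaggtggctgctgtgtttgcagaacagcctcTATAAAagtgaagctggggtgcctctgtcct
The E-box CAGCTG was present in 12.8% of 27025 promoters of this length, and in 1 of 6 slow, 5 of 10 fast and 6 of 11 shared members with a promoter in the table. The MCAT element was present in 12.6% of all promoters and in 3 of 6 slow, 4 of 10 fast and 3 of 11 shared members. TATAAA was present in 13% of all promoters and in 1 slow, 3 fast and 1 shared member. The CArG box was found in 1.4% of all promoters and in 1 slow, 1 fast and 1 shared member. In the Myh7 promoter, the MCAT match lay 201 to 196 bases before the start. These matches describe letters in 27 of the 34 promoters and not sites of binding.

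Sample sheets gave, with M for 1000000, between 48.9 M and 70.3 M alignments for a day 3 epidermis library, between 10.1 M and 37.3 M for one of day 3 dermis and between 37.3 M and 57.3 M reads for one of week 1. The deleted gene itself gave, in day 3 epidermis, 3.04, 0.95, 7.13 and 7.21 RPKM in libraries a to d labelled WT and 1.5, 1.58, 2.22 and 1.29 RPKM in icKO libraries a to d. Library b labelled WT was thus below every icKO library and went against its label, and the results that use it are given below with and without it. Dlx3 missed the threshold in this comparison (log2 difference -0.87 ± 0.34, limma adjusted p = 0.108). With STAT3i it was 6.07 to 6.77 RPKM in WT and 1.01 to 1.71 RPKM in icKO, and it fell by 1.64 (SE 0.37, adjusted p = 0.00471). In day 3 dermis Dlx3 went against the labels, with 3.58, 20.5 and 2.19 RPKM in the libraries labelled WT and 64.3, 65.9 and 1.75 RPKM in those labelled icKO. It went there with 8 hair shaft keratins, whose summed level was 4.47, 1767 and 1.22 RPKM and then 6685, 8111 and 1.87 RPKM in the same order. At week 1, Dlx3 was 3.17 and 5.79 against 1.46 and 1.82 RPKM in epidermis and 2.81 and 5.21 against 0.14 and 0.167 RPKM in dermis, WT first.

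Muscle RNA was abundant in the day 3 libraries and scarce at week 1. The 34 genes together made up 2.17% to 6.24% of the summed RPKM of a day 3 epidermis library and 0.742% to 5.21% of a day 3 dermis library. At week 1 they made up 0.00415% to 0.0109% in epidermis and 0.0259% to 0.0905% in dermis. The shares of the day 3 epidermis libraries overlapped those of the day 3 dermis libraries labelled WT, which were 3.07%, 5.21% and 3.54%. Day 3 epidermis also held 1878 to 13248 RPKM over 6 fibroblast genes and 1360 to 3453 RPKM over 6 adipocyte genes. Day 3 dermis had 1009 to 5095 and 1839 to 2637 RPKM, and week 1 epidermis 37.4 to 90.3 and 5.52 to 253 RPKM. The label epidermis is kept as a name, for day 3 libraries that also held transcripts of dermis, fat and muscle. The tables came from separate runs and were normalized separately, so these levels are given side by side and were not tested against each other.

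**Figure D1:**
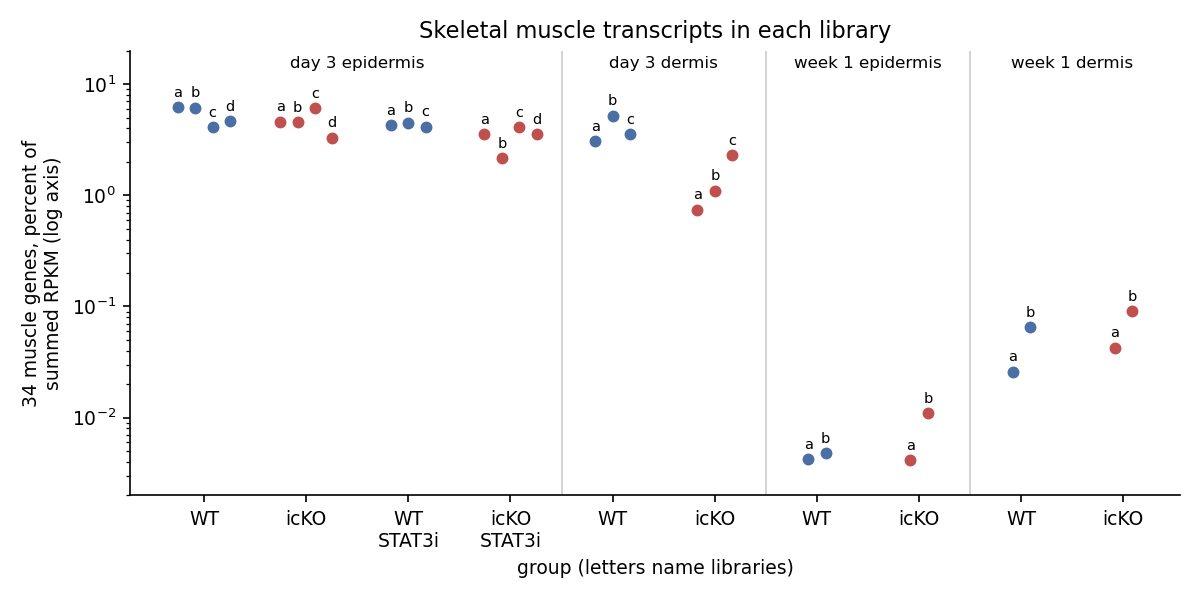
Share of the summed RPKM of each library that fell in the 34 skeletal muscle genes, in percent on a log axis, by group; points are libraries, blue WT and red icKO. Day 3 libraries lie at 0.742% or above and week 1 libraries at 0.0905% or below.

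In day 3 epidermis the fast programme carried nearly all of the muscle signal. Skeletal alpha-actin (Acta1), the thin filament protein, was the most abundant member, at 4326 ± 1016 RPKM in WT (SD, n = 4) and 4186 ± 846 RPKM in icKO (n = 4). Next came the fast troponins Tnnt3 (854 to 2460 RPKM over the 15 libraries), Tnni2 (955 to 2278 RPKM) and Tnnc2 (605 to 1664 RPKM), the fast light chain Mylpf (572 to 1734 RPKM) and muscle creatine kinase Ckm (668 to 2152 RPKM). Per unit of length, the giant protein titin (Ttn, 5.22 to 11.6 RPKM), the calcium release channel Ryr1 (8.83 to 27.8 RPKM), its voltage sensor Cacna1s (11.2 to 33.0 RPKM) and nebulin (Neb, 11.9 to 27.2 RPKM) were the lowest members outside the slow class. The 6 slow genes together were at least 0.0218% and under 1% of the summed RPKM of the slow and fast genes, so that the fast genes were far above the slow ones in every library.

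Slow fibre genes were higher in icKO than in WT day 3 epidermis without inhibitor, while no fast gene passed the test. Of 33 members that passed the filter (1 RPKM in at least 4 of the compared libraries), 6 rose and 0 fell, in a comparison where 12.8% of all 13095 tested genes were called and 9.12% were called higher. The 6 were all 5 slow genes tested and myoglobin (Mb). The median log2 difference was 1.90 over the 5 slow genes, -0.19 over the 14 fast genes, -0.10 over the 14 shared genes and 0.04 over all tested genes. Of the 5 slow genes, 4 (Myl2, Myl3, Tnnc1 and Tnni1) reached 1 RPKM in too few WT libraries and passed the filter through the icKO group alone, so their count is a description and adds nothing to their own tests.

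Without library b labelled WT, whose Dlx3 level went against its label, 8 members rose and 0 fell: all 6 slow genes, Mb and the IIa heavy chain Myh2 (log2 difference 1.12 ± 0.25, adjusted p = 0.00742). Fewer libraries were then needed to pass the filter, which let in Myh7, and slow minus fast, described below, differed by 2.40. The share of all genes called in that fit is not given here, so the count describes the members alone.

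The slow regulatory light chain Myl2, which sets how myosin heads respond to calcium signals, had 0, 3.16, 0.323 and 0.402 RPKM in libraries a to d labelled WT and 16.7, 17.7, 12.7 and 9.64 RPKM in icKO libraries a to d. Every icKO library was above every WT library. Myl2 rose by 3.15 ± 0.44 on the log2(RPKM + 1) scale (SE, limma, Benjamini-Hochberg adjusted p = 0.00251). The slow essential light chain Myl3 was 0.148 to 0.694 RPKM in WT and 1.16 to 3.55 RPKM in icKO, again without overlap, and rose by 1.34 ± 0.32 (adjusted p = 0.0194).

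The troponin complex, which holds the thin filament off until calcium binds, moved with all 3 of its slow subunits. Slow troponin T (Tnnt1), which anchors the complex to tropomyosin, had 1.69, 24.9, 2.98 and 3.12 RPKM in WT, against 41.7, 39.7, 39.0 and 24.6 RPKM in icKO. Library b labelled WT, the one low in Dlx3, just exceeded icKO library d, and the other 3 WT libraries were far below. Tnnt1 rose by 2.65 ± 0.52 (adjusted p = 0.00829), and by 3.37 ± 0.23 without library b labelled WT (adjusted p = 2.46e-06). Slow troponin I (Tnni1), the inhibitory subunit, was 0.22 to 0.523 RPKM in WT, against 5.37, 5.25, 3.46 and 1.62 RPKM in icKO, and rose by 1.77 ± 0.35 (adjusted p = 0.00882). Tnnc1, the calcium-binding subunit of slow and cardiac muscle, was 0.474 to 0.786 RPKM in WT, against 8.51, 8.22, 4.91 and 1.39 RPKM in icKO, and rose by 1.90 ± 0.41 (adjusted p = 0.0126). In both genes the groups did not overlap and icKO library d was the lowest of its group.

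The slow myosin heavy chain Myh7, the motor of slow fibres, was nearly silent in WT, at 0.00573, 0.0221, 0.00458 and 0.0492 RPKM in libraries a to d. In icKO it was 6.58, 6.83, 3.53 and 0.753 RPKM, so library d kept it below the filter. Fitted without a filter, Myh7 rose by 2.19 ± 0.44 on the same log2 scale (adjusted p = 0.0166). Of the 34 members, 5 were above every WT library in all icKO libraries, and all 5 were slow (Tnnt1 overlapped), in a comparison where 7.86% of tested genes were so ordered. Myh7 was not among the tested genes. The other 4 passed the filter through the icKO group alone, so this count too is only a description.

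**Figure D2:**
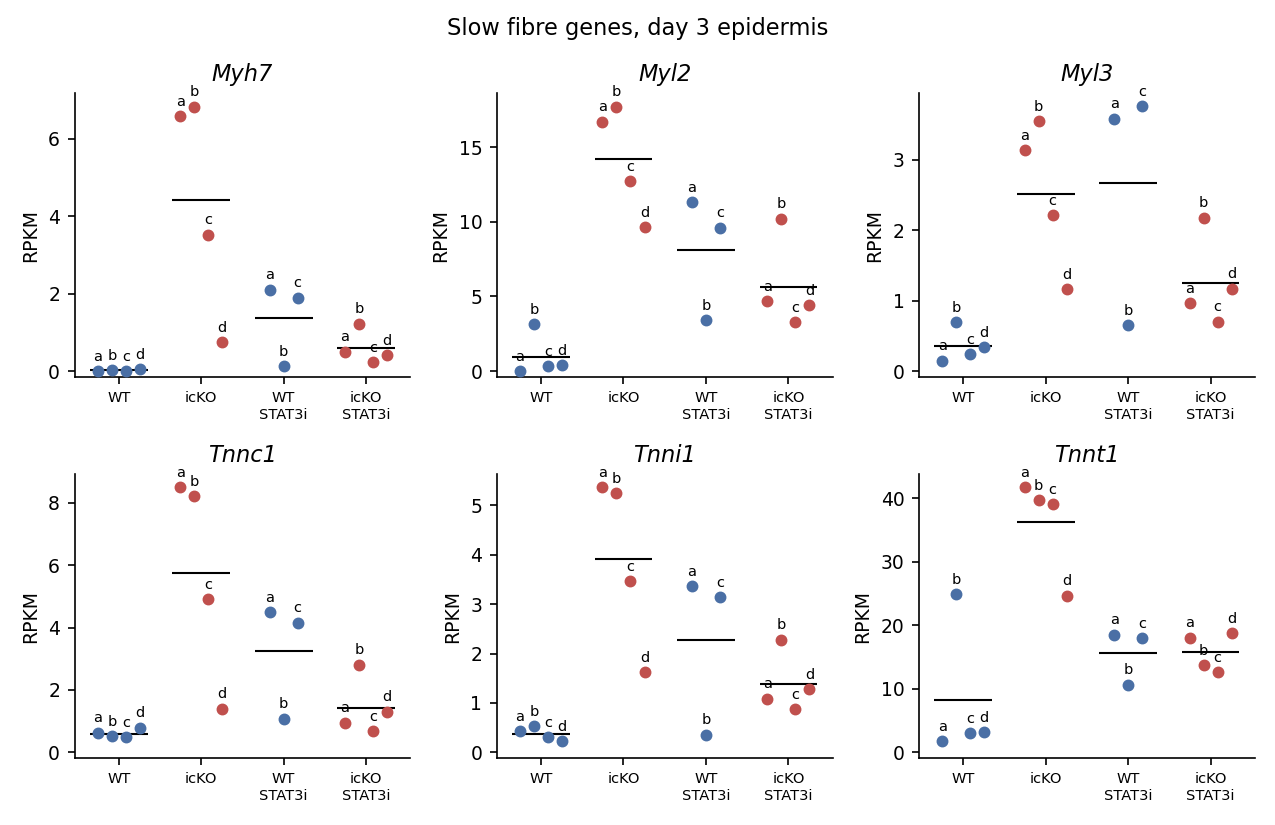
RPKM of the 6 slow fibre genes in day 3 epidermis by group; points are libraries (letters), blue WT and red icKO, and lines are group means. Libraries labelled WT without inhibitor are near 0 except library b for Tnnt1 (24.9 RPKM), and the icKO libraries without inhibitor have the highest mean for every gene but Myl3, whose mean is 2.52 RPKM there and 2.66 RPKM in WT with STAT3i.

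Each slow gene was set against its fast counterpart within a library, a share in which a change common to both genes cancels. Slow transcripts from cells other than muscle would enter it too, and their part was not tested. Tnni1, for one, was high in 2 dermis libraries rich in hair shaft keratins, as given below. Myh7 was 0.000408% to 0.00489% of the 4 adult heavy chains in WT and 0.567%, 0.588%, 0.259% and 0.1% in icKO libraries a to d. Myl2 was 0% to 0.197% of Myl2 and Mylpf in WT and 0.831% to 1.49% in icKO. For Tnnt1 against Tnnt3 the share was 0.0749%, 1.0%, 0.163% and 0.167% in WT and 1.66% to 2.33% in icKO. All 6 slow shares were higher in every icKO library than in every WT library without inhibitor. The mean log2 level of slow minus fast genes was -8.14 ± 0.33 in WT (SD, n = 4) and -5.85 ± 0.46 in icKO (n = 4), a difference of 2.29, and with a pseudocount of 0.1 the difference was 3.62. The slow mean was 0.81 ± 0.44 in WT and 2.97 ± 0.62 in icKO, and the fast mean was 8.96 ± 0.29 and 8.83 ± 0.44.

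Fast genes and genes of both types showed no call beside Mb. The fast heavy chains and light chains had log2 differences of -0.11 to 0.11, apart from the IIa heavy chain Myh2 (log2 difference 0.84 ± 0.29, adjusted p = 0.0712). The fast calcium pump Atp2a1 was 1128 to 1353 RPKM in WT, against 943, 928, 1333 and 699 RPKM in icKO (log2 difference -0.39 ± 0.20, adjusted p = 0.2). The calcium buffer parvalbumin (Pvalb) was 424 to 587 RPKM in WT and 190 to 665 RPKM in icKO (-0.46 ± 0.33, adjusted p = 0.352). Ckm, which regenerates ATP, was 1443 to 2152 RPKM in WT and 1071 to 2082 RPKM in icKO (-0.27 ± 0.22, adjusted p = 0.408). Mb, the oxygen store of oxidative fibres, was 145, 210, 108 and 155 RPKM in WT, against 271, 276, 218 and 169 RPKM in icKO, and rose by 0.60 ± 0.18 (adjusted p = 0.0473). Library b labelled WT overlapped icKO library d for Mb.

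**Figure D3:**
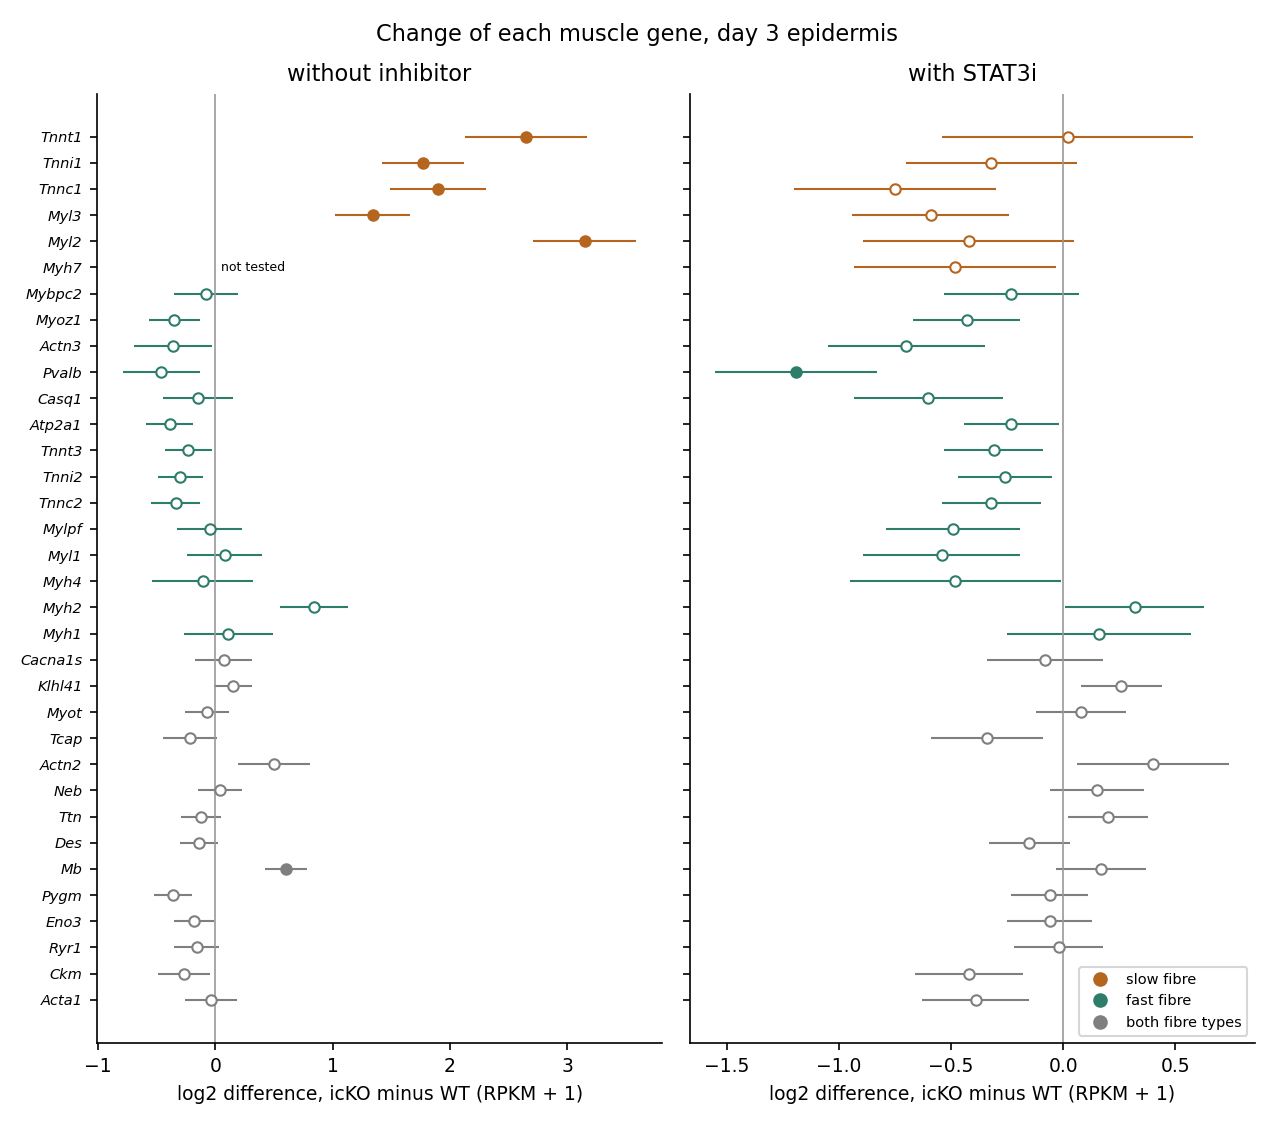
Log2 difference on the RPKM + 1 scale (icKO minus WT, points with SE bars) for each member in day 3 epidermis, without inhibitor (left, 4 against 4 libraries) and with STAT3i (right, 3 WT against 4 icKO); filled points passed an adjusted p of 0.05. The slow genes stand at 1.34 to 3.15 on the left and at -0.75 to 0.02 on the right.

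The slow rise went with some other genes that muscle uses. Csrp3, a muscle LIM protein of the Z-disc, rose by 1.18 ± 0.25 (adjusted p = 0.0108), from 36.1 to 75.5 RPKM in WT to 92.4 to 150 RPKM in icKO. Atp2a2, the calcium pump of slow fibres that other cells also use, rose by 0.56 ± 0.10 (adjusted p = 0.00475). Both come from a list of 7 further slow fibre genes, 6 of them tested, in which 2 rose, and both were named after their values were seen. Atp2a2 does not measure muscle alone. It was 31.9 to 63.9 RPKM in day 3 epidermis and 29.7 to 45.8 RPKM in week 1 epidermis, where Acta1 was 1.92 to 7.56 RPKM. The part of other cells in its rise was not tested. Of 10 calcium handling genes, 1 rose, the pump inhibitor sarcolipin (Sln, 1.15 ± 0.28, adjusted p = 0.0207). Among myogenic factors, 1 of 4 tested rose (myogenin, Myog, 0.64 ± 0.15, adjusted p = 0.0164), and among 3 tested genes of embryonic and regenerating muscle, 1 rose (Ncam1, 0.37 ± 0.11, adjusted p = 0.0476). Levels within these 2 lists were uneven over the 15 libraries. The embryonic heavy chain Myh3 stayed at 0.731 RPKM or less, whereas the perinatal heavy chain Myh8 was 1.65 to 6.41 RPKM and the embryonic light chain Myl4 was 1.19 to 3.99 RPKM. The satellite cell factor Pax7 stayed at 0.283 RPKM or less and Myf5 at 0.579 RPKM or less, whereas the myogenic factor Myf6 was 8.19 to 16.9 RPKM, Myod1 was 1.01 to 2.12 RPKM and the cadherin Cdh15 was 0.675 to 1.73 RPKM.

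Of 6 atrophy genes, 2 fell, where 3.7% of all tested genes were called lower: the growth inhibitor myostatin (Mstn, -1.24 ± 0.33, adjusted p = 0.0294) and the ubiquitin ligase Fbxo32 (-0.56 ± 0.13, adjusted p = 0.0157). Within this list, Fbxo32, Gadd45a, Foxo1 and Foxo3 were 6.14 to 16.9 RPKM in week 1 WT epidermis, where Acta1 was at most 2.23 RPKM. They do not measure muscle alone, here or in the comparisons below. Mstn and Trim63 were at most 0.114 RPKM there. No call was made by limma among 7 muscle mitochondrial genes or 4 tested genes of the neuromuscular junction, of which 0 had an unadjusted p under 0.05. Of 6 cardiac genes, Myh6, Nppa and Myl7 were at or below 0.937 RPKM in every day 3 epidermis library, whereas cardiac actin Actc1 was 0.75 to 27.4 RPKM, cardiac troponin T (Tnnt2) 1.09 to 9.14 RPKM and cardiac troponin I (Tnni3) 1.34 to 3.54 RPKM. Of the slow genes, Myl2, Myl3, Myh7 and Tnnc1, which the heart also uses, reached 17.7, 3.76, 6.83 and 8.51 RPKM. Of the cardiac list Tnnt2 fell (-0.90 ± 0.25, adjusted p = 0.0318). Of 7 smooth muscle genes, 2 fell (Myh11, -0.44 ± 0.12, adjusted p = 0.0358, and Lmod1, -0.74 ± 0.22, adjusted p = 0.0451).

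Several other features of the libraries moved with the slow genes, and their part in the result was not tested. The icKO libraries a and b were the closest pair of the group, with a median absolute log2 difference of 0.0489 over 13760 genes, against 0.117 to 0.174 for the other pairs. The labels do not say whether these 2 libraries share a source, and if they do, n is 3 rather than 4 and the SEs above are too small. With near pairs of this kind averaged, 2 of the 6 calls held (Myl2 and Tnni1). Averaging the closest pair of every group left 0, and leaving out icKO library a or b left 3. The summed level of 8 hair shaft keratins was 11.7, 11.9, 5.52 and 0.355 RPKM in icKO libraries a to d, and the summed slow genes were 82.0, 81.3, 65.8 and 39.2 RPKM in the same order, while in WT the keratins summed to 0.12 to 0.908 RPKM. No hair shaft keratin passed the filter. Of 6 markers for each other cell type, 1 keratinocyte gene rose and 1 Schwann cell gene fell. limma called 0 fibroblast, adipocyte, macrophage and endothelial genes, of which 2, 3, 2 and 1 had an unadjusted p under 0.05. By Ddx3y and Xist the WT libraries were male except c, and the icKO libraries were female except c, which held both transcripts. With a term for Ddx3y, 3 members rose (Myl2, Tnni1 and Tnnt1). With STAT3i all WT libraries were male and all icKO libraries female, so sex and genotype cannot be told apart there.

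Under STAT3i the slow genes no longer separated the genotypes. Of 34 members tested, 0 rose and 1 fell, where 34% of 13241 tested genes were called and 14.1% were called lower. Pvalb fell by 1.19 on the log2 scale (SE 0.36, adjusted p = 0.0203), from 357, 376 and 339 RPKM in WT to 189, 82.1, 186 and 206 RPKM in icKO, with no overlap. In icKO against WT, 6 of 34 members were below in every library, all of them fast (Myh4, Myl1, Mylpf, Casq1, Pvalb and Actn3), where 24.9% of tested genes were so ordered, and 1 was above (Actn2, a Z-disc actinin), where 27.5% were. The slow genes had log2 differences of -0.75 to 0.02, and slow minus fast differed by -0.05 between the genotypes, being -6.34 ± 0.84 in WT (SD, n = 3) and -6.38 ± 0.80 in icKO (n = 4). Tnnt1 was 18.5, 10.6 and 17.9 RPKM in WT, against 18, 13.7, 12.6 and 18.7 RPKM in icKO, so the groups lay on top of each other. The count was 0 without WT library a, WT library c or icKO library b, and 2 without WT library b or icKO library c.

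Markers of other cell types moved in the same comparison, and their part in the muscle result was not tested. Of 6 fibroblast genes 4 fell, their sum being 8755 to 10577 RPKM in WT and 2598 to 3799 RPKM in icKO. Of 6 keratinocyte genes 4 rose, where 19.9% of all tested genes were called higher, their sum being 5361 to 5772 RPKM in WT and 10978 to 14811 RPKM in icKO. Of 6 endothelial and 6 Schwann cell genes 1 each fell. limma called 0 of 6 adipocyte and 0 of 6 macrophage genes, of which 0 and 1 had an unadjusted p under 0.05.

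In the related lists under STAT3i, Atp2a2 was again higher in icKO (0.52 ± 0.10, adjusted p = 0.00233). The part of cells other than muscle in this was not tested. Of the 7 smooth muscle genes, 5 fell, among them Myh11 (-0.96 ± 0.13, adjusted p = 0.000297), and of the 6 atrophy genes 3 fell and 1 rose (Foxo1 -0.65 ± 0.15, Foxo3 -0.89 ± 0.21, Fbxo32 -0.49 ± 0.14 and Gadd45a 0.47 ± 0.16, adjusted p = 0.00514, 0.00656, 0.0155 and 0.0346). These atrophy genes do not measure muscle alone, as given above. Of the cardiac list 1 fell (Tnni3, -0.53 ± 0.17, adjusted p = 0.029). limma called 0 of 10 calcium handling genes and 0 of 4 myogenic factors, of which 1 and 2 were higher at an unadjusted p under 0.05.

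The genotype difference of 3 slow genes was smaller with STAT3i than without, by the test of the interaction. Myl2 (-3.57 ± 0.64, adjusted p = 0.0296), Tnnc1 (-2.65 ± 0.61, adjusted p = 0.0452) and Myh7 (-2.68 ± 0.62, adjusted p = 0.0459) were called, 3 of 34 members where 2.14% of 13563 tested genes were called and 1.41% were called lower. The other 3 slow genes had interactions of -1.93 to -2.63 and missed the threshold, with adjusted p of 0.0507, 0.0507 and 0.0699, while the median was -0.24 over fast genes and 0.01 over all genes. No member was called when any of 8 single libraries was left out (icKO library a, b or c without inhibitor, WT STAT3i library a or c, icKO STAT3i library a, c or d), nor with a term for Ddx3y. Without library b labelled WT, low in Dlx3, all 6 slow genes were called lower (-2.04 to -4.01). The closest pair of a group was also averaged where it was under 0.1 apart. This left 0 members called in this test and in the comparisons that use STAT3i libraries. Such pairs were WT STAT3i b and c (0.0741) and icKO STAT3i a and d (0.0581), besides icKO a and b. WT STAT3i a and c (0.0844) were also under 0.1 apart but were not averaged. The labels do not say whether these libraries share a source, and if they do, n is smaller in those groups.

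In icKO epidermis muscle genes tended to be lower with the inhibitor. All 34 log2 differences were below 0 (median -0.50, against -0.01 over all genes), but only 3 fell at the threshold, where 5.56% of 13074 tested genes were called and 2.75% were called lower. Myh7 fell by 1.59 (SE 0.42, adjusted p = 0.0438), from 6.58, 6.83, 3.53 and 0.753 RPKM to 0.507, 1.23, 0.231 and 0.406 RPKM. The calcium release channel Ryr1 fell by 0.72 (SE 0.19, adjusted p = 0.0428), and Pvalb fell by 1.25 (SE 0.33, adjusted p = 0.0437). Library d of the group without inhibitor lay inside the range of the treated libraries for all 3. It had 15.6 RPKM of Ryr1, against 8.83 to 19.1 RPKM with STAT3i, and 190 RPKM of Pvalb, against 82.1 to 206 RPKM. With this library left out 9 members fell, and the count was 0 without icKO library a, b or c or without STAT3i library a, b or d. Of 6 keratinocyte genes 1 rose, their sum being 6037 to 10731 RPKM without and 10978 to 14811 RPKM with the inhibitor. The 6 fibroblast genes, none of them called, summed to 3998 to 9759 and then 2598 to 3799 RPKM. limma called 0 adipocyte, macrophage, endothelial and Schwann cell genes, of which 1, 0, 0 and 2 had an unadjusted p under 0.05. Their part in the muscle result was not tested.

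In WT epidermis 1 slow gene was higher with the inhibitor. Of 31 members tested, 1 rose and 3 fell, where 18.8% of 13211 tested genes were called, 10.9% higher and 7.86% lower. Myl2 and Tnnc1 passed the filter through the treated group alone. Myl2 rose by 2.32 ± 0.47 (adjusted p = 0.00861), from at most 3.16 RPKM to 11.3, 3.4 and 9.6 RPKM. Myh7 and Tnnc1 were also above every untreated WT library (Myh7 2.11, 0.135 and 1.9 RPKM, Tnnc1 4.5, 1.08 and 4.16 RPKM), although Myh7 did not pass the filter and Tnnc1 missed the threshold (adjusted p = 0.0574). In all 3 genes WT STAT3i library b was far below a and c. Of 6 fibroblast genes 1 rose, and of 6 adipocyte and 6 Schwann cell genes 1 each fell. All 6 macrophage markers rose in the same comparison, their sum being 171 to 1025 RPKM without and 1136 to 1346 RPKM with the inhibitor, and their part in the muscle result was not tested.

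The 3 members that fell were Ryr1, by 0.86 (SE 0.20, adjusted p = 0.0146), titin by 0.56 (SE 0.18, adjusted p = 0.0425) and the sarcomere assembly factor Klhl41 by 0.56 (SE 0.18, adjusted p = 0.0412). Ryr1 was 26.3, 27, 21.8 and 25.6 RPKM without and 13.5, 13.6 and 12.9 RPKM with the inhibitor. In all, 12 members were below and 3 above every untreated library, where 13% and 14.8% of tested genes were so ordered. The 3 above were Myh7, which was not tested, and Myl2 and Tnnc1, which passed the filter through the treated group alone. Their count is only a description. The amount of titin per 1000 RPKM of Acta1 was 2.17 to 2.78 RPKM in untreated WT and 1.29, 1.82 and 1.59 RPKM with STAT3i, so the ratio of this very long transcript to a short one also differed, and its part in these falls was not tested. Rescaling each library to a sum of 1000000 gave 3 higher and 3 lower members. The count was 0 without WT STAT3i library a, 1 without c and 6 without b, and 2, 3, 2 and 2 without untreated libraries a to d labelled WT. Without library b, low in Dlx3, the 3 were Myl2 and Tnnt1, which rose by 2.76 and 2.20 (adjusted p = 0.000795 and 0.000273), and Ryr1, which fell by 0.83 (adjusted p = 0.0161), while titin and Klhl41 missed the threshold (adjusted p = 0.0638 and 0.0673).

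Among related genes, the junctional proteins Jph1 and triadin (Trdn), which hold the calcium release unit together, fell with the inhibitor in both genotypes, Jph1 by 1.00 (SE 0.21) in WT and 0.89 (SE 0.19) in icKO and Trdn by 1.06 (SE 0.21) and 1.00 (SE 0.19), with adjusted p of 0.0088, 0.0241, 0.00743 and 0.0163. They were 2 of 10 calcium handling genes in each. The mitochondrial subunit Cox7a1 fell by 0.77 (SE 0.16, adjusted p = 0.0082) in WT and by 0.58 (SE 0.14, adjusted p = 0.0359) in icKO, and the regulator Ppargc1a fell by 0.49 (SE 0.09, adjusted p = 0.00518) in WT, for 2 of 7 and 1 of 6 mitochondrial genes. In WT, Mstn fell by 1.48 (SE 0.36, adjusted p = 0.0154), Foxo3 rose by 0.73 (SE 0.21, adjusted p = 0.0316), the myogenic factor Myf6 fell by 0.60 (SE 0.17, adjusted p = 0.0308), Tnnt2 fell by 0.96 (SE 0.26, adjusted p = 0.0255), and 2 of 7 smooth muscle genes rose (Actg2 0.65 ± 0.21, adjusted p = 0.043, and Myh11 0.41 ± 0.13, adjusted p = 0.0473). In icKO, Foxo1 fell by 0.58 (SE 0.14, adjusted p = 0.0324), and 2 of 3 embryonic muscle genes fell (Myl4 by 0.52, SE 0.14, adjusted p = 0.0428, and Ncam1 by 0.42, SE 0.11, adjusted p = 0.0488).

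The mix of fast heavy chains varied widely among libraries of 1 group. As a share of the RPKM of Myh1, Myh2 and Myh4, the IIb motor of the fastest fibres, Myh4, was 14.1%, 55.7%, 45.4% and 74.4% in libraries a to d labelled WT and 42.9%, 43.1%, 53.9% and 24.8% in icKO. The libraries at the 2 ends were both WT: library a had 1166 RPKM of the IIx chain Myh1 and 198 RPKM of Myh4, and library d had 200 and 749 RPKM. With STAT3i the share of Myh4 was 40.2% to 46.1% in WT and 27.7% to 35.7% in icKO, a narrower spread. Myh4 itself passed no test, with log2 differences of -0.11 ± 0.43 without inhibitor (adjusted p = 0.876) and -0.48 ± 0.47 with it (adjusted p = 0.452). Myh2, the IIa chain of oxidative fast fibres, was 2.95% to 8.75% of the 3 in WT and 10.1% to 11.7% in icKO, and 8.43% to 8.66% and 10.1% to 12.9% with STAT3i, so its share was higher in every icKO library than in every WT library of the same treatment. These closely related genes lie side by side on chromosome 11 (Myh2 from 67171027, Myh1 from 67200052 and Myh4 from 67238029, plus strand, GRCm38), and the labels and headers do not say how reads shared among them were divided.

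**Figure D4:**
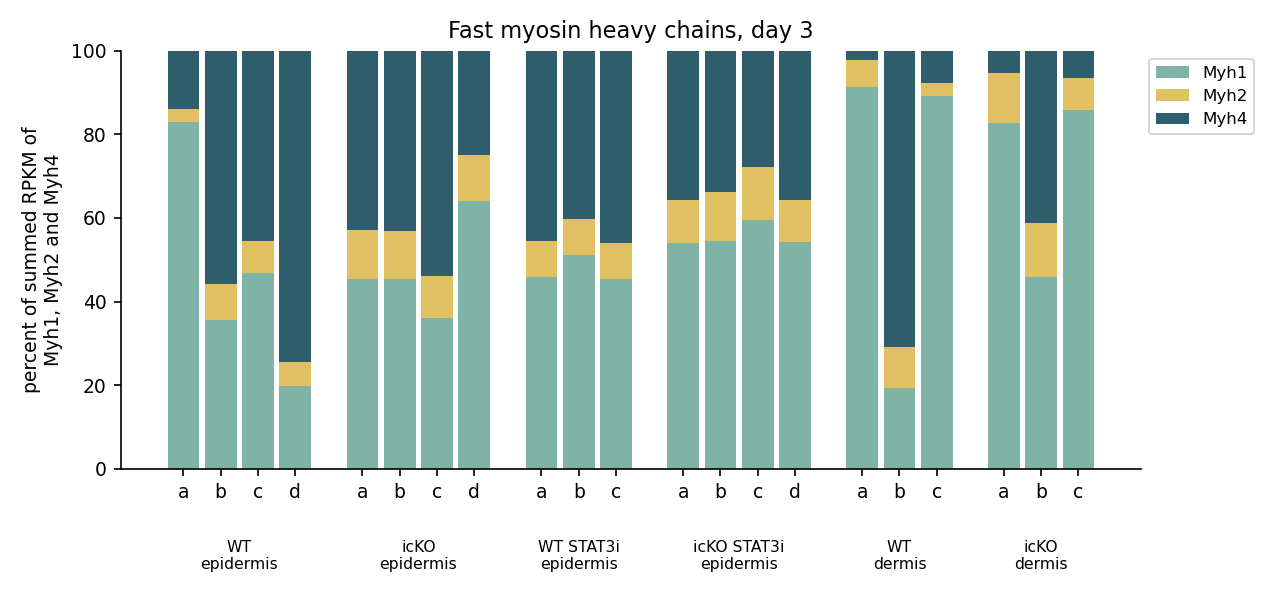
Percent of the summed RPKM of Myh1, Myh2 and Myh4 in each of the 3, for each day 3 library (letters) by group. Myh4 runs from 2.11% in dermis WT library a to 74.4% in epidermis WT library d.

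Day 3 dermis held lower muscle levels in the libraries labelled icKO, without a call. Of 30 members tested with limma, 0 passed an adjusted p of 0.05, where 0% of 13017 tested genes were called, and 24 members had an unadjusted p under 0.05, all of them lower (1643 of all genes did). The median log2 difference was -1.51 over members and -0.01 over all tested genes. Of 34 members, 25 were lower in every library labelled icKO than in every library labelled WT, where 11.3% of tested genes were so ordered. The 25 were 11 of 14 fast genes and all 14 shared genes.

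Acta1 was 3849, 5383 and 3740 RPKM in the libraries labelled WT and 1084, 1409 and 3399 RPKM in those labelled icKO (log2 difference -1.30 ± 0.44, adjusted p = 0.38). Ckm was 1156, 2562 and 1485 RPKM and then 293, 499 and 997 RPKM (-1.64 ± 0.51, adjusted p = 0.37). Tnni2, the fast inhibitory troponin, was 1617, 2709 and 1960 RPKM and then 421, 590 and 1192 RPKM (-1.62 ± 0.41, adjusted p = 0.362). In all 3 genes icKO library c stood close to the libraries labelled WT and a and b were well below. The same order held for Atp2a1 (461, 1085 and 594 against 149, 245 and 362 RPKM, -1.49 ± 0.43, adjusted p = 0.37) and Pvalb (288, 1202 and 491 against 67.3, 167 and 228 RPKM, -2.01 ± 0.65, adjusted p = 0.376). Mb was 159, 258 and 276 against 69.5, 85.8 and 77.9 RPKM (-1.52 ± 0.23, adjusted p = 0.362), and here icKO library c was as low as a and b.

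Libraries a and b labelled icKO were those with the high hair shaft level, 6685 and 8111 RPKM over 8 keratins, and the low summed level of 6 macrophage genes, 183 and 293 RPKM against 641 to 1538 RPKM in the other 4. Library b labelled WT also had hair shaft transcripts (1767 RPKM) and the highest share of muscle genes, 5.21%. Without icKO library c, 22 members fell and 1 rose, in a fit that called 3192 genes in all, where the full fit had called 0. The calls were thus not particular to muscle genes. The part of hair growth in the muscle difference was not tested.

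Slow genes in day 3 dermis were high in 1 library of each label. Tnnt1 was 2.61, 27.7 and 0.853 RPKM in the libraries labelled WT and 1.67, 14.6 and 3.88 RPKM in those labelled icKO, and Myl2 was 0, 4.97 and 0 RPKM and then 0, 9.03 and 0 RPKM. Library b of each group therefore held the slow signal for both genes, and Myh7 had 1.23 and 0.886 RPKM there against at most 0.0202 RPKM elsewhere. Myh4 stood high in the same 2 libraries, at 70.8% and 41.2% of the fast heavy chains against 2.11% to 7.57% in the other 4 (883 and 118 RPKM against 9.99 to 69.2 RPKM, log2 difference between the labels -1.53 ± 1.57, adjusted p = 0.594). Tnni1 was 0.783, 1.76 and 0 RPKM and then 6.87, 7.17 and 0.873 RPKM (1.54 ± 0.67, adjusted p = 0.398), high where the hair shaft keratins were highest. Slow minus fast was -7.68 ± 0.52 in the libraries labelled WT (SD, n = 3) and -5.83 ± 1.14 in those labelled icKO (n = 3), a difference of 1.85. Most of it lay in the fast genes, whose mean log2 level was 8.69 ± 0.69 and 7.09 ± 0.75, while that of the slow genes was 1.01 ± 1.05 and 1.26 ± 0.86. Of the related lists 0 genes were called by limma, but all 6 mitochondrial genes tested and 9 of 10 calcium handling genes were lower at an unadjusted p under 0.05, and 1 of 7 smooth muscle genes was.

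**Figure D5:**
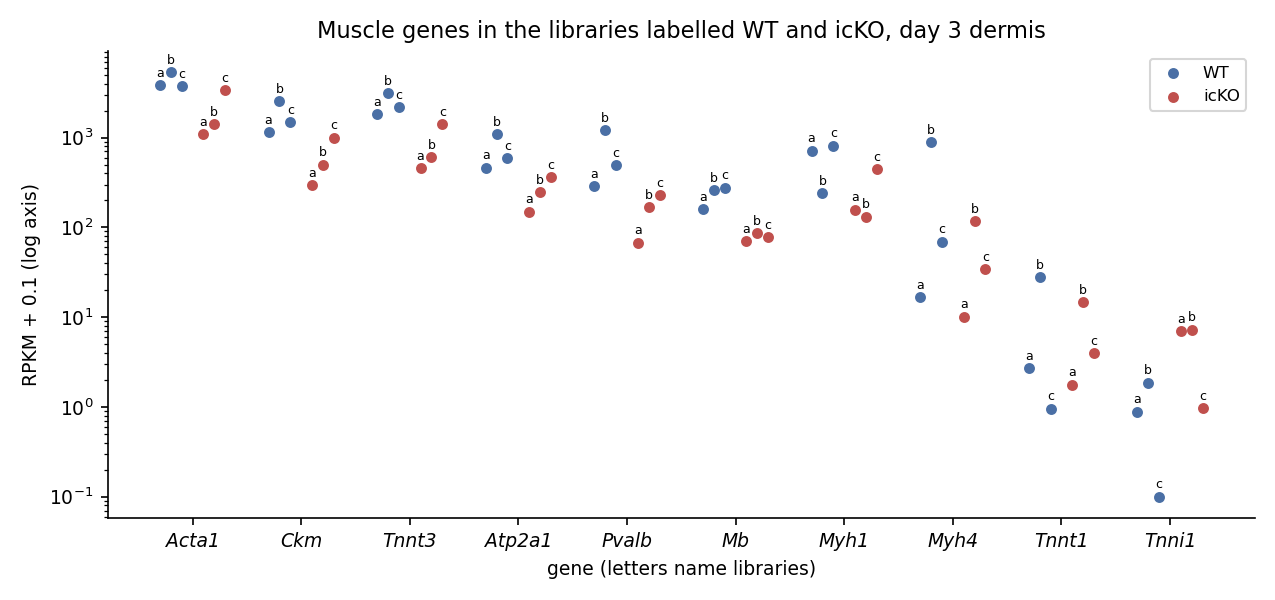
RPKM + 0.1 on a log axis for 10 members in the 6 day 3 dermis libraries (letters), blue for the label WT and red for icKO. Libraries a and b labelled icKO are lowest for Acta1, Ckm, Tnnt3 and Atp2a1, while Myh4 and Tnnt1 are highest in library b of both labels.

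At week 1 muscle was close to absent from epidermis. Acta1 stood at 2.23 and 1.92 RPKM in the WT libraries, against 2.01 and 7.56 RPKM in those of icKO (log2 difference 0.73 ± 0.50, adjusted p = 0.265), and Myh4 was 0.0468, 0.0356, 0.0397 and 0.295 RPKM. Of 9 members tested, 1 rose and 0 fell, where 55.3% of 11796 tested genes were called, 11.7% higher and 43.6% lower. It was Tnni2, which passed the filter through icKO alone, at 0.82 and 1.48 RPKM in the WT libraries, against 2.78 and 6.69 RPKM in those of icKO (1.34 ± 0.38, adjusted p = 0.034). The median over all genes was -0.50, which quantile normalization took to -0.08, and member values are to be read against it (median over members 0.52). The count was 0 without either WT library, 9 without icKO library a and 6 without icKO library b. Ckm was 1.0 and 0.754 against 0.461 and 4.46 RPKM (adjusted p = 0.446). Tnni1, Myl2 and Myh7 were at 0.784 RPKM or less in all 4 libraries, Atp2a1 at 2.29 RPKM or less, Pvalb at 0.542 RPKM or less and Mb at 1.7 RPKM or less, and none of them passed the filter. Markers of other cell types of the skin moved in the same comparison, and their part was not tested. Of 5 macrophage genes tested 4 rose (sum 11.9 and 14.5 RPKM in WT, 45.7 and 187 RPKM in icKO), of 3 adipocyte genes 2 rose (sum 5.52 and 9.74, 58.1 and 253 RPKM), and the 1 endothelial gene tested rose (sum 0.488 and 0.815, 3.06 and 3.42 RPKM). Of 6 keratinocyte genes 1 rose and 2 fell, of 5 fibroblast genes 1 rose and 3 fell, and of 2 Schwann cell genes 1 fell.

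Week 1 dermis held a little muscle, uneven between libraries. Acta1 stood at 5.81 and 48.6 RPKM in the WT libraries, against 18.5 and 63.5 RPKM in those of icKO, so library b of each genotype was the richer one (log2 difference 0.95 ± 0.94, adjusted p = 0.429). Ckm (8.85 and 32.6 against 11.6 and 46.9 RPKM), Tnni2 (2.37 and 12.9 against 12.4 and 30.2 RPKM) and Pvalb (2.2 and 5.31 against 3.83 and 10.5 RPKM) showed the same order within each genotype. So did Atp2a1 (0.689 and 4.49 against 1.46 and 4.72 RPKM) and Mb (0.789 and 4.22 against 1.87 and 7.04 RPKM), and the adjusted p of these 5 genes was 0.0947 to 0.696. Of 19 members tested, 2 rose and 0 fell, where 49.3% of 12744 tested genes were called, 8.41% higher and 40.9% lower. Scaling each library to a sum of 1000000 gave 3 higher and 1 lower, and the median over all genes, -0.38, moved to -0.51.

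Klhl41, a stabilizer of nebulin and thin filaments, rose by 2.47 ± 0.42 (adjusted p = 0.00515), from 3.46 and 10.5 RPKM in WT to 46.1 and 32.2 RPKM in icKO. Unlike Acta1 it was higher in icKO library a than in b. In day 3 epidermis, a separate run, Klhl41 was 44.7 to 92.5 RPKM beside 2185 to 5355 RPKM of Acta1. Here the icKO libraries had 18.5 and 63.5 RPKM of Acta1. Klhl41 thus did not follow Acta1 in icKO dermis and is no measure of muscle there. Its source was not tested. Tnnt1 rose by 0.68 ± 0.17 (adjusted p = 0.0182), from 1.17 and 1.3 RPKM to 2.18 and 3.05 RPKM. The other slow genes stayed at 0.793 RPKM or less and were not tested. Desmin (Des), the intermediate filament of all muscle, stood at 59.8 and 53.2 RPKM in the WT libraries, against 34.9 and 50.7 RPKM in those of icKO, while 7 smooth muscle genes, which share desmin with skeletal muscle, summed to 393, 356, 248 and 272 RPKM. The count was 12 without WT library b and 4 without icKO library a. Of related genes, 3 of 4 mitochondrial genes rose (Cox6a2 1.09 ± 0.30, Cox7a1 1.02 ± 0.23 and Slc25a4 0.60 ± 0.13, adjusted p = 0.0229, 0.013 and 0.0125), and 4 of 7 smooth muscle genes fell, among them Smtn (-1.57 ± 0.15, adjusted p = 0.00196). Of the atrophy list, 3 of 4 tested genes fell here and 3 of 4 in week 1 epidermis. Those tested were Fbxo32, Gadd45a, Foxo1 and Foxo3, which do not measure muscle alone. These counts are to be read against the 40.9% and 43.6% of all tested genes that were called lower in dermis and epidermis.

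Markers of other cell types moved in week 1 dermis as well, and their part in the muscle values was not tested. All 6 keratinocyte genes fell (sum 2094 and 2795 RPKM in WT, 547 and 738 RPKM in icKO), as did all 6 endothelial genes (sum 209 and 218, 88 and 98.5 RPKM) and all 8 hair shaft keratins (sum 79.8 and 86, 2.18 and 3.81 RPKM). Of 6 Schwann cell genes 4 fell, of 6 fibroblast genes 3 fell, of 5 adipocyte genes tested 3 fell, and of 5 macrophage genes tested 2 rose.

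Fast heavy chain transcripts were low beside the light chain Mylpf at week 1. The 3 fast heavy chains summed to 0.0343 to 0.0419 RPKM per RPKM of the light chain Mylpf in dermis and 0.0108 to 0.0954 in epidermis, whereas the ratio was 0.57 to 1.2 in day 3 epidermis and 0.584 to 0.725 in day 3 dermis. In week 1 dermis icKO library b, Mylpf was 49.0 RPKM and Myh4 1.08 RPKM, and in day 3 dermis library b labelled WT they were 1933 and 883 RPKM. Titin against Acta1, also a long against a short transcript, followed this order only in part. Titin per 1000 RPKM of Acta1 was 1.39 to 2.67 RPKM in week 1 epidermis, within the 1.29 to 2.78 RPKM of day 3 epidermis. In week 1 dermis it was 1.71 and 0.56 RPKM in WT libraries a and b and 1.07 and 0.332 RPKM in icKO libraries a and b. Day 3 dermis had 1.19 to 1.69 RPKM, so only WT library a of week 1 dermis was not below that range. Titin itself was at most 0.0272 RPKM in any week 1 library, so these ratios rest on very low values. Time and sequencing run cannot be told apart here.

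In WT at week 1 the 34 genes made up 0.00425% and 0.00478% of the summed RPKM in epidermis and 0.0259% and 0.0655% in dermis. Tamoxifen was topical for epidermis and intraperitoneal for dermis. Tissue and route therefore cannot be told apart in this comparison or in the interaction below. Of 13 members tested 9 fell in epidermis against dermis and 0 rose, where 59.3% of 13108 tested genes were called and 33.9% were called lower. The log2 differences were largest for desmin (-5.64, SE 0.31, adjusted p = 6.35e-06), Ckm (-3.28, SE 0.84, adjusted p = 0.0115) and Acta1 (-2.58, SE 0.95, adjusted p = 0.0474). They were -1.11 for Tnnt1 (SE 0.14, adjusted p = 0.000376), -1.86 for the glycogen phosphorylase Pygm (SE 0.31, adjusted p = 0.00159), -1.71 for Pvalb (SE 0.45, adjusted p = 0.0131) and -2.39 for the light chain Myl1 (SE 0.65, adjusted p = 0.0148). Of these 9, 6 passed the filter through dermis alone and so had to be lower in epidermis, which leaves the count as a description. The other 3 were Acta1, the muscle enolase Eno3 (-1.21, adjusted p = 0.0301) and Klhl41 (-1.27, adjusted p = 0.0284). All 7 smooth muscle genes, which carry desmin too, also fell. The count was 3 without either epidermis library or dermis library b and 19 without dermis library a. The icKO effect differed between the tissues for 1 of 19 members tested, where 32.5% of 13539 tested genes were called and 17.2% were called higher: Klhl41, with an interaction of 1.94 ± 0.58 (dermis minus epidermis, adjusted p = 0.0383). In epidermis it stood at 1.75 and 2.22 RPKM in the WT libraries, against 2.92 and 3.66 RPKM in those of icKO. In icKO dermis its level did not follow that of Acta1, as given above. The call was lost without either WT epidermis library, icKO epidermis library a or icKO dermis library b.

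The exons of 16 members overlap another annotated gene on the opposite strand (GENCODE M21), among them Myl2 (with Ccdc63), Mb (with Apol6), Tnnc2 (with Ube2c) and Myh7 (with Mhrt). The labels do not say whether strand was kept, and without it reads of such pairs cannot be told apart. Nor do they tie libraries to separate animals, so that p values measure the spread between these libraries.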

How the data were processed

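The deposited RPKM values (reads per kilobase of transcript and per M mapped reads, M being 1000000) were made by the authors, who aligned reads to mm10 with TopHat2 2.1.0 and used Partek, per the submitters' processing notes. Day 3 epidermis is a table of genes. Day 3 dermis and week 1 are tables of transcripts, whose values were summed per gene after 832 exact duplicate lines had been dropped. Not given in the sources used here are the splitting of reads shared between genes and the use of strand. The tables came from separate runs, so tests stay within a table. The deposited count totals are used only as ranges of depth per table (48.9 to 70.3 M, 10.1 to 37.3 M and 37.3 to 57.3 M). Depth per gene is not given, so low values carry no interval.

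Titles gave each sample's group. For 2 week 1 epidermis samples the genotype field says otherwise, and titles were followed. Columns show a group and no replicate number, so letters only name libraries.

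Values were tested as log2(RPKM + 1) with limma 3.58.1 (R 4.3.3, trended variance) over all genes at 1 RPKM or more in a number of libraries at least equal to the smaller of the groups compared, with Benjamini-Hochberg adjustment over all genes tested and a threshold of 0.05. The 15 day 3 epidermis libraries share 1 fit. Fold changes on this scale understate low genes. The code was tested on simulated data. Tables and plots were made with Python 3.11.15, pandas 2.3.3 and matplotlib 3.10.9. Members and gene lists were chosen with earlier results of these data known. Named genes are the 6 slow members, 10 members given in every table (Acta1, Ckm, Myh4, Myh7, Myl2, Tnni1, Tnni2, Atp2a1, Pvalb and Mb), up to 6 further members of lowest p past the threshold per direction in each comparison, up to 3 such genes of each related list, and Dlx3. Alternatives were another pseudocount, no filter, 2 scalings, fits of the compared groups alone, a Ddx3y term, averaged close libraries and leaving out each library. A term for the level of the shared members and the averaging of closest pairs under 0.1 apart were added after the data were seen.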

Additional observations from a re-analysis of the deposited data

Results flagged for a closer look

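In 10 of 66 groups of 4 day 3 epidermis libraries, the highest or lowest library stood apart from the others (its gap to the nearest, over the whole range, was above Dixon's 95% critical value). Chance alone gives about 1 in 20 where groups are independent. The 66 repeat the same libraries over related measures, such as Tnnt1 and its share, so their count cannot be set against that rate. Among libraries labelled WT without inhibitor, library b, whose Dlx3 level went against its label, was highest for Myl2 (3.16 RPKM), for Tnnt1 (24.9 RPKM) and for the share of Tnnt1 in Tnnt1 and Tnnt3 (1.0%), and library a was lowest for the share of Myl3 against its fast counterpart (0.00947%). Among icKO libraries without inhibitor, library d was lowest for Tnnt1 (24.6 RPKM). Among icKO libraries with STAT3i, library b was lowest for Myh4 (148 RPKM) and Pvalb (82.1 RPKM) and highest for the slow share of Myl2 (1.76%) and of Myl3 (0.438%), and library c was highest for Mb (236 RPKM). Library b of that group also had the lowest share of muscle genes of the 15 libraries, 2.17%.

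The icKO effect differed between treatments for 3 slow genes, by a limma interaction of -3.57 for Myl2, -2.65 for Tnnc1 and -2.68 for Myh7 on the log2(RPKM + 1) scale (adjusted p = 0.0296, 0.0452 and 0.0459). At week 1 it differed between tissues for Klhl41, by an interaction of 1.94 (dermis minus epidermis, adjusted p = 0.0383). Tissue and route of tamoxifen cannot be told apart there, and in icKO dermis Klhl41 did not follow Acta1. No cause of these patterns was tested.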

How the results depend on the processing

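The difference in slow minus fast genes between icKO and WT without inhibitor (2.29 on the log2 scale) was 3.62 with a pseudocount of 0.1 and 2.95 with libraries scaled to a sum of 1000000. With these settings the interaction with STAT3i (-2.34) was -3.8 and -3.06, and with a pseudocount of 0.1 the effect of STAT3i in WT (1.81) was 2.88. Fitted on the compared groups alone, 3 members were called for icKO against WT without inhibitor (6 as reported), 3 with STAT3i (1) and 2 for STAT3i in WT (4). A Ddx3y term gave 3, 0, 0, 7 and 0 for icKO against WT without and with inhibitor, STAT3i in icKO (3 as reported), STAT3i in WT, and the interaction (3). With STAT3i sex and genotype coincide, so this term rests on WT library c and icKO library c without inhibitor alone. The latter held both transcripts and was coded by its Ddx3y like the male libraries. Averaging the closest pair of each group gave 0 in all 5, and averaging only those closest pairs that were under 0.1 apart gave 2, 0, 0, 0 and 0. A term for the level of the 14 shared members gave 12, 12, 0, 7 (5 higher, 2 lower, Mylpf at 0.55) and 5. These last 2 settings were chosen after seeing the data. Without the filter, STAT3i called 0 members in icKO and 3 in WT (2 higher, 1 lower), the interaction 1, week 1 epidermis 2 (1 as reported) and week 1 dermis 1 (2). Quantile normalization gave 2 in week 1 epidermis, 5 for WT epidermis against WT dermis (9) and 0 for the week 1 interaction (1), which a pseudocount of 0.1 also took to 0. Libraries scaled to that sum gave 4 in week 1 dermis. The cause of these shifts was not tested.

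Leaving out each library in turn, the counts were 3 to 8 for icKO against WT without inhibitor, 0 to 2 with STAT3i, 0 to 9 for STAT3i in icKO, 0 to 6 in WT and 0 to 6 for the interaction. They were 0 to 23 in day 3 dermis, 0 to 9 in week 1 epidermis, 2 to 12 in week 1 dermis, 3 to 19 for WT epidermis against WT dermis and 0 to 1 for the week 1 interaction. Higher and lower calls turned around for STAT3i in WT without library b labelled WT (3), STAT3i library b (6) or STAT3i library c (1), and for the week 1 interaction without icKO epidermis library a (1). In week 1 epidermis Ckm ran from -0.36 to 1.54 and Myl1 from -0.41 to 0.69, the low ends without icKO library b and the high ends without icKO library a. In the same order, slow minus fast ran from 2.14 to 2.46, -0.53 to 0.21, -0.91 to -0.29, 1.55 to 2.29, -2.82 to -2.08, 1.42 to 2.50, -0.59 to 0.16, -1.06 to 0.15, 0.19 to 1.40 and -0.85 to 0.36. At week 1 the library left alone in its group is assumed to vary like the other group. The share of all genes called is not set beside most counts from alternative fits, here and above, so they describe the members alone.

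No paired analysis was possible because the columns carry no replicate numbers. In WT day 3 epidermis Myh7 lay below 0.05 RPKM, and how many reads this rests on is not given.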
